A study of Mus musculus with 16 samples.

Results

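The m6A methylome of MC38 cells that carry a control guide consisted of 19236 peaks, which was every row of the single peak list deposited for the WT m6A immunoprecipitation (IP) group. Each peak was assigned to a gene by the Ensembl identifier in its name field, which gave 9427 genes with a peak among 55401 genes in the count table of the same series. MC38 is a mouse colon adenocarcinoma line, and the titles tag these libraries gNC, read here as the name of a control guide, so WT need not mean unmodified cells. The WT group held 3 m6A IP libraries and 3 input libraries, 6 of the 16 samples of the series, and the Ythdf2-KO and YTHDF2 RIP libraries were not used here. Per the labels' protocols, polyadenylated RNA was fragmented and an antibody to the mark was used to enrich the methylated fragments. The labels do not say whether the 3 replicates came from separate cultures. The IP libraries share 1 peak list, so peaks have no replicate error, and every interval below is an exact 95% Clopper-Pearson interval that covers counting error only.

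N6-methyladenosine (m6A) is a methyl mark on adenosines inside mRNA. It is laid down during transcription by a nuclear complex around METTL3 and METTL14 at a short consensus, written GGACT in DNA letters in its best known form, and YTH-domain proteins bind it. Long internal exons and the region of the stop codon are known for high m6A, and exon junction complexes are known to keep the mark off sequence near splice sites.

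The 3 input libraries held 45441281, 46452917 and 50885512 counted reads, so that 3 reads, the limit that a count of 0 allows, correspond to 0.0590 to 0.0660 CPM (each count scaled by the total count of its library). Of 9 epithelial or carcinoma markers, 0 reached 1 CPM, 4 (Epcam, Krt18, Cdx2 and Cldn7) were at 0 in every input library, and their summed level was 1.10 to 1.32 CPM. All 8 mesenchymal markers passed 1 CPM, with a summed level of 4878 to 5205 CPM, most of it Fn1 and Vim. The lowest of them was Lum, at a mean of 3.64 CPM. The defining transcripts of epithelium were thus at or near 0 in RNA of a line labelled as a carcinoma. Leukocyte markers summed to 11.3 to 13.8 CPM, nearly all of it Lyz2, endothelial markers to 1.64 to 2.07 CPM and the erythroid pair Hbb-bs and Hba-a1 to 18.5 to 30.6 CPM. Their part in any result below was not tested.

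Narrow peaks with the consensus and multi-block peaks rich in purines are shown here with 3 and 2 examples on the transcript strand from GENCODE M21 (GRCm38). The examples were picked by rule after their sequences were known: the 3 single-block peaks of 61 bases with GGACT and the lowest score, and 2 of the 3 peaks of score 0 with 3 or more blocks and the highest purine content, all in coding sequence. The first examples are narrow and carry the consensus, in capitals. The peaks lie in exon 2 of 4 of Ube2n, a ubiquitin-conjugating enzyme (chr10:95541287-95541347, plus strand), exon 3 of 3 of Kctd6 (chr14:8222338-8222398, plus strand) and exon 1 of 10 of Rbm42, an RNA-binding protein (chr7:30649987-30650047, minus strand), and are printed whole.
Ube2n: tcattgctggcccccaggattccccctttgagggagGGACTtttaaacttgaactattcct
Kctd6: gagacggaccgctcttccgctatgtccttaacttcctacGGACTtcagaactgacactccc
Rbm42: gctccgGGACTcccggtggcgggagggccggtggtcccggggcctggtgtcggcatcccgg
The other examples come from peaks over several exons and are made mostly of A and G, with AAGAA and GAAGA in capitals. Shown is the middle of each peak, with 50 bases on either side of its centre, for Rbm39 (exon 4 of 17, chr2:156172921-156173021, minus strand) and Rbm25 (exon 11 of 19, chr12:83668218-83668428, plus strand, 2 exons joined), which both encode splicing factors.
Rbm39: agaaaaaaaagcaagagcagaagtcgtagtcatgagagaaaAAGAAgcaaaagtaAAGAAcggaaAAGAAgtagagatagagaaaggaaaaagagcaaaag
Rbm25: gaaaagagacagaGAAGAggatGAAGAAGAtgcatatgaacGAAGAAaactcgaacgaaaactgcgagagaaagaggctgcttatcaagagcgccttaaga
Purines made up 41.0%, 39.3% and 52.5% of the first 3 sequences and 86.1% and 74.3% of the other 2, a contrast that the choice of examples fixed.

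Most transcribed protein-coding genes carried m6A peaks, and most of those carried more than 1. Genes with a mean of 1 CPM or more over the 3 input libraries were called expressed. Of 11717 expressed protein-coding genes, 8455 (72.2%, interval 71.3% to 73.0%) had 1 or more peaks and 2407 (20.5%, interval 19.8% to 21.3%) had 3 or more. Over all genes, 4417 had 1 peak, 2549 had 2 and 2461 had 3 or more. This last group held 9721 peaks, 50.54% of the list.

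The share of unmarked genes fell with transcript level up to 100 CPM and was higher again in the most abundant bin. At 1 to 3 CPM, 79.0% of 881 protein-coding genes had no peak, 16.8% had 1, 3.75% had 2 and 0.454% had 3 or more. At 3 to 10 CPM 44.9% of 1273 genes had no peak, and at 10 to 30 CPM 26.4% of 2799 had none. At 30 to 100 CPM 17.95% of 4506 genes had none and 26.0% had 3 or more. The bin of 100 to 300 CPM was close to it, with 17.9% of 1810 genes unmarked and 29.4% with 3 or more. Above 300 CPM 27.7% of 448 genes had no peak, and the marked share of 72.3% (interval 67.9% to 76.4%) lay below the interval of the bin before it (80.3% to 83.8%). Genes of this bin also had shorter transcripts, with a median of 1994 bases against 2915 bases at 100 to 300 CPM. Weakly transcribed genes give fewer fragments, so their unmarked share cannot be told apart from peaks that were not detectable at this depth.

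**Figure D1:**
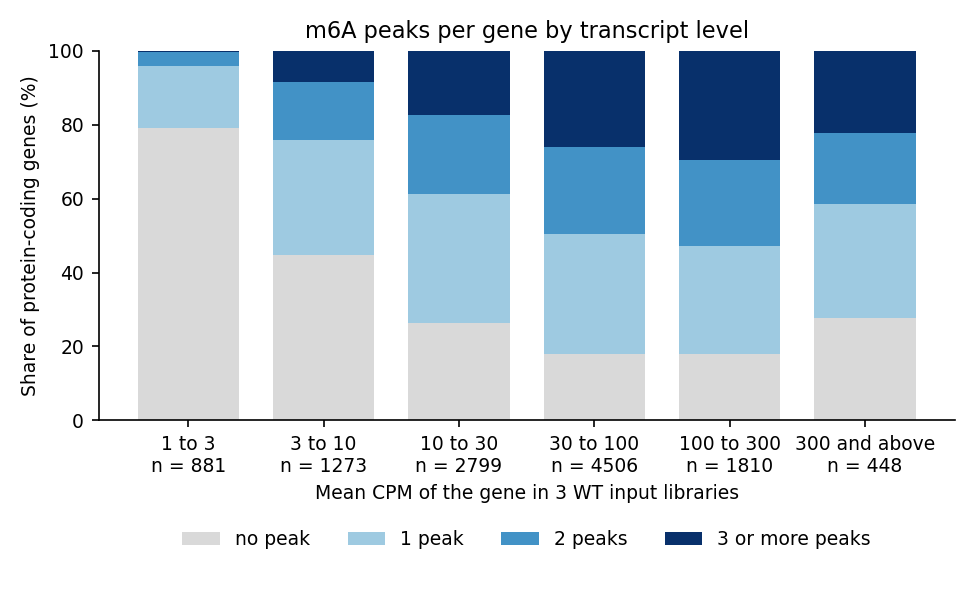
Stacked bars give the share of expressed protein-coding genes (y axis, percent) with no, 1, 2 and 3 or more m6A peaks in each bin of mean CPM over the 3 WT input libraries (x axis, number of genes under each bin). The unmarked share falls from 79.0% at 1 to 3 CPM to 17.9% at 100 to 300 CPM and is 27.7% above 300 CPM.

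Most of the genes with most peaks have very long transcripts. Macf1, a linker of actin and microtubules (chromosome 4, 123349633 to 123684360), had 22 peaks, and its input level was 239, 222 and 226 CPM in the 3 libraries. Dst, its close relative dystonin (chromosome 1, 33908225 to 34308661), had 19 peaks at 351, 300.1 and 314.5 CPM. These are spectraplakin cytoskeletal linkers with transcripts of 23495 and 23201 bases. Cep350, a centrosomal protein, and Zfhx4, a zinc finger homeobox factor, had 15 peaks each. Ahnak, a giant scaffold protein, Syne1, a nuclear envelope spectrin-repeat protein, and Brca2, which acts in DNA repair, had 12 each, and Atp2b1, a plasma membrane calcium pump, and Plec, the cytolinker plectin, had 11 each. Atp2b1 has the shortest transcript of those named, with 7130 bases.

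The peaks of these genes were arranged in different ways. In Ahnak 10 of 12 centres lay in the exon of 17498 bases. In Macf1 the longest exon has 5331 bases and held 2 of the 15 peaks that could be placed on the reference transcript, and 9 of its 22 peaks had several blocks. In Dst 10 of 19 peaks had several blocks and 4 of 17 placed centres lay in the longest exon. Many peaks in a gene thus came both from tiled single exons and from peaks spread over short exons. Peaks of 89 genes shared bases with another peak listed for the same gene, and of the genes named here these were Brca2, Hk2, Malat1 and Rbm15b, whose counts include such a pair.

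Several of the most abundant mRNAs had no peak. mt-Co1, a mitochondrially encoded subunit of cytochrome oxidase, was at 3735, 5565 and 5708 CPM and had 0 peaks. Fn1, the matrix protein fibronectin (chromosome 1, 71585520 to 71653200), was at 2959, 2235 and 2446 CPM. It had 0 peaks over 46 exons and 8315 bases of transcript, whereas 94.9% of the 59 genes above 300 CPM with 8000 or more exonic bases had a peak. Vim, the intermediate filament vimentin, was at 2006, 2451 and 2460 CPM with 0 peaks. The ferritin chains Ftl1 and Fth1, the ribosomal stalk protein Rplp0, the glycolytic enzyme Ldha, the ATP synthase subunit Atp5b, mt-Co3 and the ribosome-bound scaffold Rack1 complete the 10 unmarked protein-coding genes with the highest CPM. Their mean levels ran from 1381 CPM for Rack1 to 5003 CPM for mt-Co1. Apart from Fn1, their transcripts had 784 to 2193 bases.

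Among 36 gene classes, peaks were furthest below their level in respiratory chain subunits, snoRNA host genes and histones. The classes above their level beyond counting error were Zfp genes, transcription factors of families such as Hox, Fox and Klf, and chromatin regulators. For each class, the share of expressed members with a peak was set beside the share over all expressed protein-coding genes weighted to the CPM bins of the class, called the equal-level share. The class share lay below its equal-level share, with the interval clear of it, in 7 classes and above it in 3, and the intervals of the other 26 held it. Intervals were not adjusted for the number of classes. CPM is not divided by transcript length, so the comparison was repeated in bins of RPKM (CPM per kilobase of exon), in bins of CPM and exonic length, and in bins of CPM and longest exon.

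**Figure D2:**
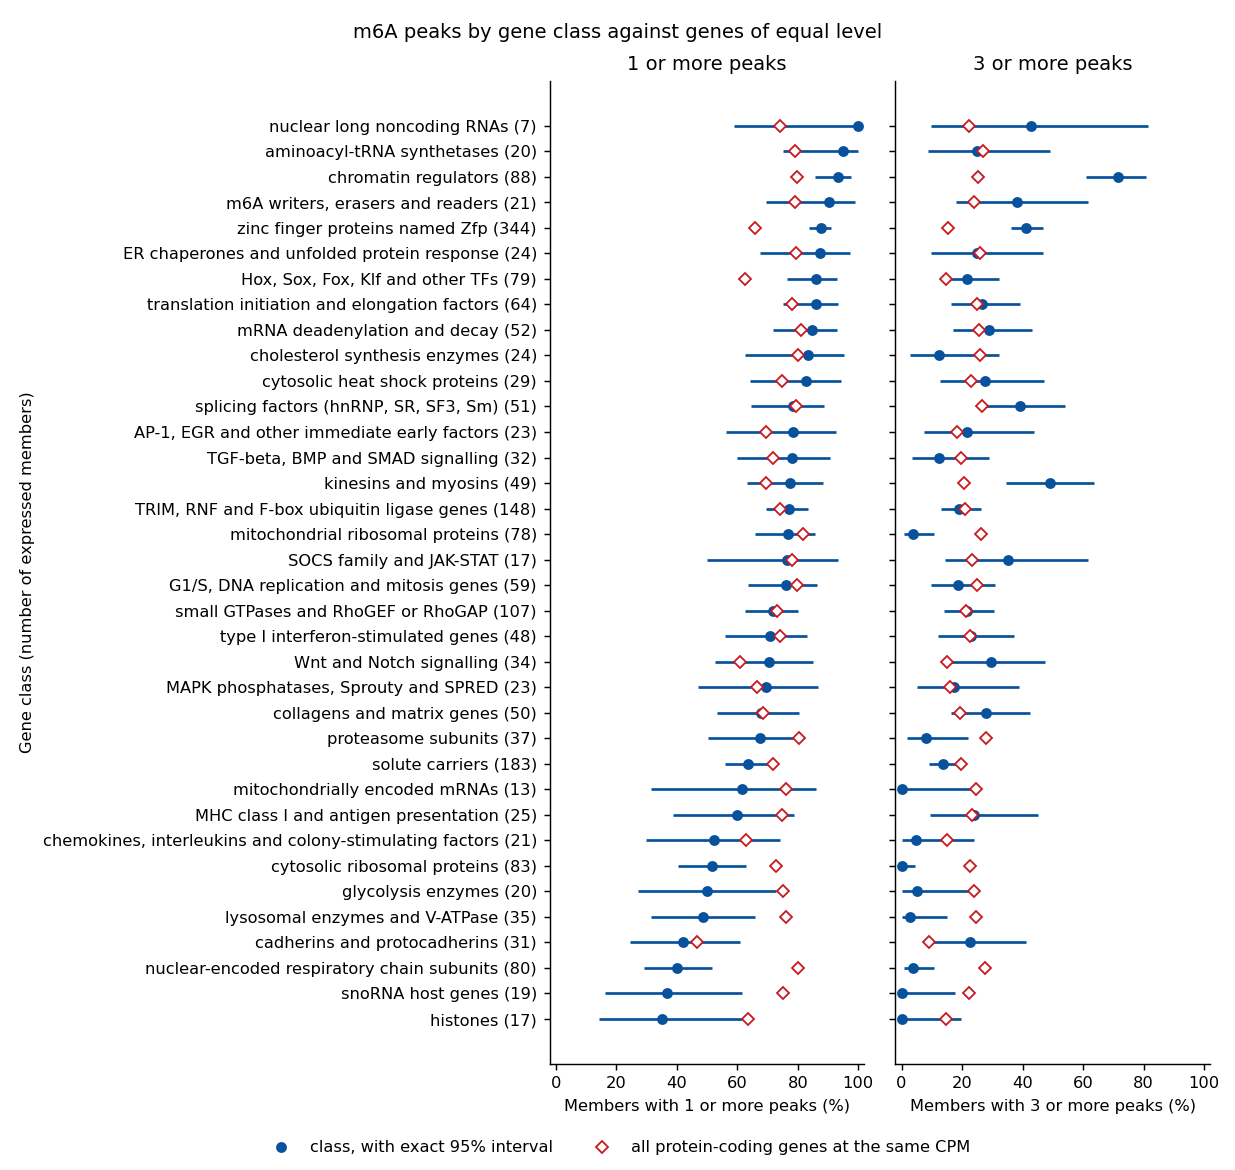
Each row is a gene class with the number of expressed members, ordered by the share with a peak. Filled points with bars give the share of members (x axis, percent) with 1 or more peaks (left) and 3 or more peaks (right) with exact 95% intervals, and open diamonds give all expressed protein-coding genes weighted to the same CPM bins. Respiratory chain subunits at 40% lie left of their diamond at 80.0%, and chromatin regulators lie right of theirs in both panels.

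Nuclear-encoded subunits of the respiratory chain stood furthest below. Of 80 expressed members 32 had a peak (40%, interval 29.2% to 51.6%), where the equal-level share was 80.0%. The share stayed under the comparison in RPKM bins (69.5%), with exonic length (66.9%) and with longest exon (69.0%). Of the marked members, 23 had 1 peak, 6 had 2 and 3 had 3 or more. Ndufa10, a complex I subunit, had most, with 4. Atp5pb, a stalk subunit of ATP synthase at 365, 395 and 393 CPM, had 1 peak of 211 bases over 3 blocks (chromosome 3, 105943057 to 105951614). Atp5b, the catalytic beta subunit of the same enzyme, was at 1441, 1581 and 1518 CPM and had none.

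Cytosolic ribosomal proteins were marked in 43 of 83 genes (51.8%, interval 40.6% to 62.9%) against an equal-level share of 72.9%. Their transcripts were short, with a median of 838 bases, and the comparison in RPKM bins (59.3%) and with exonic length (60.4%) fell inside the interval. With longest exon it was 62.9%, at the edge of the interval. None of the 83 had 3 or more peaks, an upper limit of 4.35%, where 22.7% was the equal-level share, and that difference held in each of the 4 comparisons. Rpl13a, at 1868, 2111 and 2096 CPM, had 1 peak of 358 bases in its last exon (chromosome 7, 45125737 to 45126176), with its centre 34 bases past the stop codon. Rplp0 was at 1886, 2165 and 2157 CPM, a range that overlaps that of Rpl13a, and had no peak. Of 45 placed ribosomal protein peaks, 30 (66.7%) had their centre within 200 bases of the stop codon, and 27 (60%) crossed a splice junction, against 25.7% and 33.1% of all peaks of protein-coding genes. On transcripts this short a window of 200 bases on either side of the stop codon takes up much of the sequence.

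Mitochondrial ribosomal proteins were marked about as often as genes of equal level, in 60 of 78 genes (76.9% against 81.8%), but 44 of them had a single peak. Only 3 had 3 or more peaks (3.85%, interval 0.8003% to 10.8%, against 26.4%), and that difference held in each of the 4 comparisons. Mrpl15, with a last exon of 3591 bases, had most, with 4. The peaks sat near the stop codon in 50 of 71 placed cases (70.4%). Proteasome subunits had a peak in 25 of 37 genes (67.6% against 80.5%, inside the interval) and 3 or more in 3 of 37 (8.11% against 28.0%). For 3 or more peaks the comparison was inside the interval in RPKM bins, with exonic length and with longest exon.

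Lysosomal enzymes and V-ATPase subunits had a peak in 17 of 35 genes (48.6%, interval 31.4% to 66.0%) against 76.0%. Their median transcript of 2184 bases and longest exon of 828 bases were shorter than the 2915 and 1137 bases of all protein-coding genes at 100 to 300 CPM. The difference held in RPKM bins (70.4%), with exonic length (75.8%) and with longest exon (75.5%). Lamp1, a major membrane glycoprotein of lysosomes, was at 898, 934 and 880 CPM and had no peak. Ctsl, the protease cathepsin L, was at 1873, 1908 and 1958 CPM and had 2. Glycolytic enzymes, listed with the transporters Slc2a1 and Slc16a3, were marked in 10 of 20 Ensembl identifiers (50.0%, interval 27.2% to 72.8%) against 75%. The list has fewer symbols than identifiers, so a symbol was counted more than once. The comparison was inside the interval in RPKM bins (69.4%) and with longest exon (72.4%), and outside it with exonic length (74.4%). Pkm, pyruvate kinase, had 1 peak at 2454, 2804 and 2711 CPM, Ldha, lactate dehydrogenase, had 0 at 1497, 1840 and 1812 CPM, and Hk2, a hexokinase, had most, with 5.

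Histone genes were marked in 6 of 17 (35.3%, interval 14.2% to 61.7%) against 63.7%. Most replication-dependent histone mRNAs lack a poly(A) tail, and these libraries were made from polyadenylated RNA. The comparison was inside the interval with exonic length (46.4%) and with longest exon (60.9%), and outside it in RPKM bins (72.4%). H1f0, a linker histone, had 2 peaks at 662, 624 and 635 CPM, and H3f3b, a replication-independent H3 gene, had none at 780, 748 and 820 CPM. Host genes of snoRNAs had a peak in 7 of 19 (36.8%, interval 16.3% to 61.6%) against 75.1%, and none of the 19 had 3 or more. Gas5 had 1 peak at 595, 560 and 609 CPM and Zfas1 had none at 192, 194 and 210 CPM. Solute carriers were slightly below, with 116 of 183 (63.4%, interval 55.96% to 70.4%) against 71.9%. Slc25a4 and Slc25a5, which encode ADP/ATP carriers of the mitochondrial inner membrane, had 1 peak and none.

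Zinc finger proteins named Zfp were the largest class above its equal level. Of 344 expressed members 302 had a peak (87.8%, interval 83.9% to 91.1%), where the equal-level share was 65.9%. Members with 3 or more peaks made up 41.3% against 15.4%. These genes place most of their coding sequence, an array of zinc fingers, in a long last exon, and their median longest exon was 2547 bases. With longest exon set equal the comparison rose to 73.7% for 1 or more peaks and 21.3% for 3 or more, still below the intervals. Of 767 placed Zfp peaks, 722 (94.1%, against 70.6% of all placed peaks) were centred in exons of 400 bases or more and 145 (18.9%) within 200 bases of the stop codon. Zfp292 was at 230, 143 and 152 CPM and had 9 peaks, all single blocks in its exon of 8931 bases. Zfp706, with 4 exons and a longest exon of 3897 bases, was at 77.2, 79.7 and 75.8 CPM and was the unmarked member with the highest CPM.

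Chromatin regulators had a peak in 82 of 88 genes (93.2%, interval 85.7% to 97.5%) against 79.7%. Members with 3 or more peaks made up 71.6% (63 genes, interval 60.98% to 80.7%) against 25.2%, the largest difference of this kind among the 36 classes. Both differences held in each of the 4 comparisons, the first by a small margin with exonic length (85.67% against a lower bound of 85.75%). The class had a median transcript of 5951 bases and 21.5 exons. Kmt2a, a histone H3 lysine methyltransferase (chromosome 9, 44803355 to 44881296), was at 130, 104 and 105 CPM and had 11 peaks, 9 of them single blocks. Chd4, the remodelling ATPase of the NuRD complex (chromosome 6, 125095981 to 125130591), was at 499, 492 and 467 CPM and had 9 peaks, of which 5 had several blocks. Smarcb1, a core subunit of SWI/SNF with a longest exon of 320 bases, had none at 79.5, 81.4 and 87.6 CPM. Of 327 placed peaks in the class, 82.3% were centred in coding sequence.

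Hox, Sox, Fox, Klf, Gata, Tbx and sine oculis homeobox transcription factors had a peak in 68 of 79 genes (86.1%, interval 76.5% to 92.8%) against 62.4%. The difference held in each of the 4 comparisons. In contrast to Zfp genes they mostly had 1 peak, in 35 genes. The share with 3 or more was 21.5%, and its interval held the equal-level share of 14.6%. Klf6 had 3 peaks at 88.2, 93.1 and 92.3 CPM and Foxn3 had most, with 6, at 14.9, 16.1 and 14.7 CPM. Of 122 placed peaks, 117 (95.9%) lay in exons of 400 bases or more, and the median longest exon of the class has 1836 bases.

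Other classes differed from their level in the number of peaks but not in the share marked. Kinesins, myosins and dyneins, the motor proteins, had 3 or more peaks in 24 of 49 genes (49.0%, interval 34.4% to 63.7%) against 20.6%, in each of the 4 comparisons. Dync1h1, the dynein heavy chain of 77 exons, had 8. Cadherins and protocadherins had a peak in 13 of 31 genes (41.9% against 46.8%), and 7 had 3 or more (22.6% against 8.98%). Pcdh17 had 11 peaks at only 33.0, 32.4 and 32.9 CPM, each a single block in an exon of 400 bases or more. Genes of Wnt and Notch signalling had 3 or more in 10 of 34 (29.4% against 15.0%). For cadherins and for Wnt and Notch genes the comparison was inside the interval in the other 3 comparisons. Apc, the scaffold of the beta-catenin destruction complex, had 10 peaks, and Ctnnb1, beta-catenin itself, had 2, 1 of them centred 7 bases before the stop codon.

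Splicing factors were marked as often as their level (78.4% of 51 against 79.3%), and 20 of them (39.2%) had 3 or more peaks against 26.6%. That value was inside the interval by CPM and outside it in RPKM bins and with exonic length. Srsf5, an SR protein, had 6 peaks and Hnrnpa2b1 had 5, but Hnrnpu, at 399, 351 and 344 CPM with a transcript of 7640 bases, had none. Aminoacyl-tRNA synthetases had a peak in 19 of 20 genes (95%, interval 75.1% to 99.9%) against 79.2% by CPM, inside the interval. The comparison was also inside it in RPKM bins (75.2%) and with exonic length (83.6%), and outside it only with longest exon (73.1%). Exons of the synthetase genes are short, with a median longest exon of 424 bases. Of 39 placed peaks 24 (61.5%) had several blocks, and Eprs had 7 peaks, none centred in an exon of 400 bases or more. Farsb was the unmarked synthetase. Translation initiation and elongation factors had a peak in 55 of 64 genes (85.9%, interval 74.98% to 93.4%) against 78.2% by CPM, inside the interval. The comparison was also inside it with exonic length (78.4%) and with longest exon (76.7%), and outside it in RPKM bins (74.6%). Eif4g3 had most, with 7 peaks, and Eef1a1, at 3286, 3271 and 3224 CPM, had 1.

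In classes often studied in tumour cells the interval held the equal-level share, which with few members does not show that the shares are alike. Type I interferon-stimulated genes were marked in 34 of 48 (70.8% against 74.2%), with 6 peaks in Ifi203, 4 in Oasl2 and none in Bst2. MHC class I and antigen presentation genes were marked in 15 of 25 (60%, interval 38.7% to 78.9%, against 74.9%). H2-D1 had 4 peaks and H2-K1 had 3, which are paralogs whose reads the counting could split. Chemokines, interleukins and colony-stimulating factors were marked in 11 of 21 (52.4%, interval 29.8% to 74.3%, against 63.0%), with 3 peaks in Csf1 and none in Ccl7. Cell cycle genes were marked in 45 of 59 (76.3% against 79.7%), with 10 peaks in Cenpf and none in Mcm7. Collagens and matrix genes were marked in 34 of 50 (68.0% against 68.6%), with 9 peaks in Col6a3 beside the unmarked Fn1. The TGF-beta, SOCS and JAK-STAT, MAPK phosphatase, immediate early, heat shock, unfolded protein response, small GTPase, ubiquitin ligase, cholesterol and mRNA decay classes also had intervals that held the equal-level share.

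The mRNAs of the m6A machinery carried m6A in 19 of 21 expressed members (90.5%, interval 69.6% to 98.8%, against 79.1%), and 8 had 3 or more peaks (38.1% against 23.8%). Igf2bp1 was under 1 CPM and is left out of these counts. The catalytic writer Mettl3, at 33.8, 31.5 and 32.4 CPM, had no peak, whereas its partner Mettl14, at 53.9, 42.7 and 44.6 CPM, had 3. Of the other writer subunits, Virma had 4 peaks, Zc3h13 5, Rbm15 3, Rbm15b 4, Wtap 2 and Cbll1 2. Zc3h13 had 5 multi-block peaks in 19 exons, up to 1557 bases wide. Mettl16, the methyltransferase of U6 snRNA, had 1 peak and Pcif1, the cap-adenosine methyltransferase, had 2.

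Both erasers were marked. Alkbh5 had 3 peaks at 144, 162 and 151 CPM, of which 1 of 420 bases (chromosome 11, 60553714 to 60554501) was centred 121 bases before the stop codon. Fto had 1 peak of 360 bases (chromosome 8, 91409406 to 91409765), centred in exon 3 of 9, which has 619 bases. Among readers, Ythdf1, Ythdf2 and Ythdf3 had 1 wide peak each, of 1524, 1734 and 1888 bases, centred 688, 554 and 578 bases before the stop codon in coding exons of 1521, 1584 and 1599 bases. The 3 paralogs thus shared the number, place and size of their peaks. Ythdc1, the nuclear reader, had 5 peaks and Ythdc2 had none at 24.5, 25.7 and 25.4 CPM. Hnrnpc had 1 peak, Igf2bp2 2 and Igf2bp3 1.

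Genes that do not encode proteins were marked according to their kind. Of 840 expressed long noncoding RNA genes, 364 (43.3%, interval 39.95% to 46.8%) had a peak, close to the 42.1% of protein-coding genes at the same CPM. Only 4.29% had 3 or more (interval 3.02% to 5.88%), against 6.73%. Of 1446 processed pseudogenes 130 (8.99%) had a peak, against 53.0% at the same CPM, and their reads can come from the parent gene. Of 93 small nuclear, nucleolar and ribosomal RNA genes, with a median of 119 exonic bases, 0 had a peak. The upper limit was 3.89%, against 44.7% at the same CPM. All 7 expressed members of a short list of long noncoding RNAs were marked, with an interval from 59.04% that holds the equal-level share of 74.2%. The list is labelled nuclear in the figure of classes, but the place of its members in the cell was not measured. Tug1 (chromosome 11, 3639785 to 3649673), at 100, 89.2 and 89.8 CPM, had most, with 8 peaks of 151 to 660 bases. Malat1, at 1926, 1285 and 1536 CPM, had 3, of which 2 shared bases. Peaks of long noncoding genes and of unverified loci (GENCODE class TEC) overlapped a peak of another gene on the opposite strand in 30.2% of 840 cases, against 5.50% of all peaks. No source used here states the strand setting of the counting, so part of these peaks and levels can belong to the partner gene.

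Among protein-coding genes at 10 CPM or more, transcript length, coding length and longest exon went with the number of peaks more closely than level did. Over these 9563 genes, the number of peaks had a rank correlation of 0.39 with transcript length, 0.35 with coding length and 0.32 with longest exon. It was 0.14 with the number of exons and 0.11 with CPM. Genes under 10 CPM were left out, and the unmarked share fell most there, from 79.0% at 1 to 3 CPM to 44.9% at 3 to 10 CPM. The correlations are descriptions across genes, which share libraries and are not independent replicates. At 30 to 100 CPM, genes with 0, 1, 2 and 3 or more peaks had median transcripts of 2230, 2732, 3275 and 4513 bases. Their median longest exon had 752, 1156, 1494 and 2013 bases, while the median number of exons was 9, 9, 10 and 13. The median CPM of these 4 groups was 53.3, 52.2, 54.6 and 57.1.

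At equal level the marked share rose with the longest exon. At 30 to 100 CPM it was 61.8% of 440 genes with a longest exon of 200 to 400 bases, 76.9% of 1249 at 400 to 1000, 84.7% of 1252 at 1000 to 2000 and 91.8% of 425 at 4000 bases and over. The 53 genes with no exon of 200 bases broke the order, with 66.04% marked. The share with 3 or more peaks rose from 11.1% at 200 to 400 bases to 46.8% at 4000 bases and over. At 3 to 10 CPM the marked share went from 21.1% to 70.9%. At 1 to 3 CPM the order was broken, since 15.5% of 58 genes with an exon of 4000 bases or more were marked against 28.1% at 2000 to 4000 bases. An internal exon of 400 bases or more went with a marked share of 98.1% (253 of 258 genes, interval 95.5% to 99.4%) at 100 to 300 CPM, against 79.4% of the 1552 genes without one. Of those same 258 genes, 67.1% had 3 or more peaks, against 23.2%. Genes with a long internal exon also had longer transcripts, with a median of 5030 bases against 2683, so exon and transcript length cannot be told apart there. At 1 to 3 CPM the marked share was alike with and without such an internal exon, at 21.1% and 20.99%. It was 65.6% against 52.6% at 3 to 10 CPM, and 89.5% of 38 genes against 70.7% above 300 CPM.

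**Figure D3:**
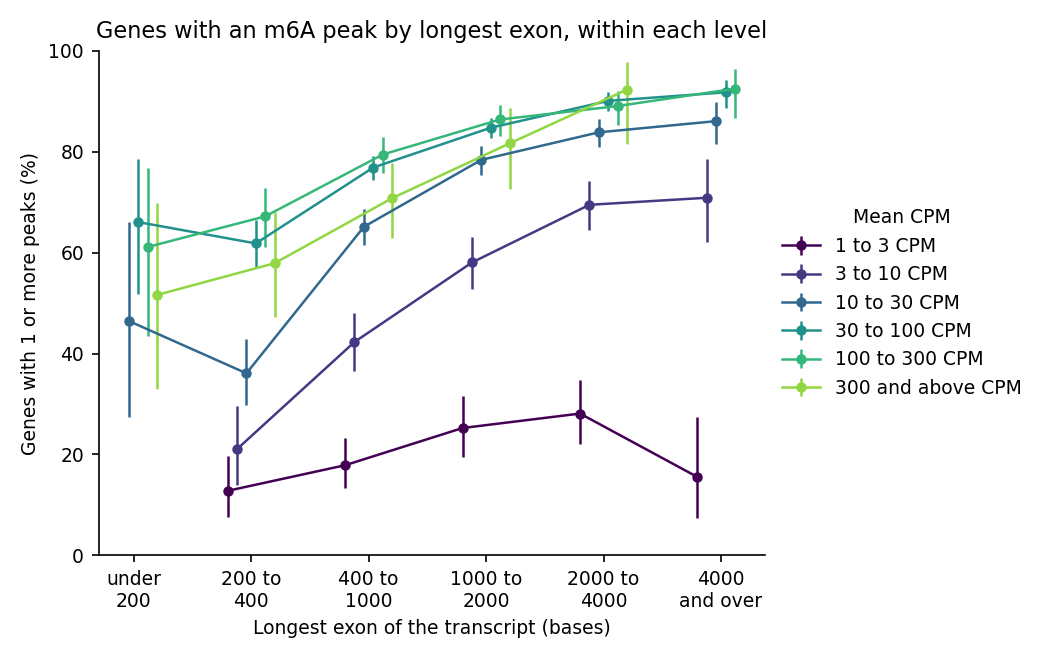
Points give the share of expressed protein-coding genes with 1 or more m6A peaks (y axis, percent) by the longest exon of the reference transcript (x axis, bases), 1 line per bin of mean CPM, with exact 95% intervals and bins of under 20 genes left out. At 30 to 100 CPM the line climbs from 61.8% at 200 to 400 bases to 91.8% at 4000 bases and over, and the line of 1 to 3 CPM stays below 30%.

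Single-exon genes, which have no splice junction, were not the most often marked. At 30 to 300 CPM, 59 of 84 single-exon genes had a peak (70.2%, interval 59.3% to 79.7%). Among genes of 2 or more exons the share was 64.03% of 784 where no exon reached 400 bases and 84.8% of 5448 where 1 or more did. The single-exon genes had a median transcript of 1658 bases, between the 1299 and 3362 bases of the other groups.

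Peak centres were placed on the transcript with the longest coding sequence for 16298 of 18133 peaks in protein-coding genes (89.9%). Internal exons of 400 bases or more held 15.4% of centres (interval 14.8% to 15.95%), where centres spread evenly over the same transcripts would give 9.16%. Within 100 bases of an exon junction lay 29.5% of centres against 39.3%, and within 150 bases of the transcript start 2.43% against 4.90%. The even spread counts every base, whereas the centre of a peak inside a transcript cannot fall close to its ends. Peaks of protein-coding genes had a median width of 263 bases, so the low share at the start is in part built into the measure. Transcripts without a placed peak were left out of the next counts. In the other 8240 transcripts, the share of internal exons that held a centre stepped up between 200 and 1000 bases. It was 5.41% for 43824 exons of 100 to 200 bases, 11.1% for 8385 of 200 to 400, 64.3% for 1862 of 400 to 1000 and 88.4% for 723 longer ones. Longer exons offer more sequence, but centres per kilobase also rose, from 0.385 and 0.452 to 1.12, and were 0.888 in the longest exons.

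The place of a peak differed with the number of peaks in its gene. Where a gene had a single peak, 45.2% of centres (interval 43.5% to 46.8%) lay within 200 bases of the stop codon. The share was 29.0% in genes with 2 peaks and 16.1% (interval 15.3% to 16.9%) in genes with 3 or more. Centres in coding sequence went the other way, from 48.4% to 56.5% and 68.6%, and centres in the last exon from 67.7% to 56.2% and 42.7%. A transcript has a single stop codon, so the share of centres near it tends to fall as a gene has more peaks. These are shares of peaks, and stop codon peaks per gene were not counted. Transcripts also lengthened, from a median of 2732 bases with 1 peak to 4513 with 3 or more at 30 to 100 CPM. Among the classes, peaks near the stop codon ran from 70.4% in mitochondrial ribosomal proteins to 4.65% of 43 peaks in cadherins, which have 23.3% of their peaks in the last exon.

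The exonic width of a peak, the sum of its blocks, had a median of 241 bases (quartiles 151 and 391, range 57 to 5061). Widths came in steps: 75.9% were a multiple of 30 bases or 1 more, where an even spread of widths would give 6.67%, and 919 peaks had exactly 61 bases. The ends of peaks are thus known to no better than such a step. The widest peaks, 1 per gene, lay in the coding sequence of Mki67, the proliferation antigen (5061 bases, chromosome 7, 135689784 to 135698525), Golgb1, a Golgi tether (4404 bases), Ankrd11, a chromatin cofactor (4108 bases), Plec (3659 bases) and Zfp62 (3630 bases). All 5 were centred in exons of 3381 to 6836 bases. Median width rose from 151 bases at 1 to 3 CPM to 270 bases at 30 CPM and above. It was 241 bases in genes with 1, 2 and 3 or more peaks alike.

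A peak held 1 block in 68.0% of cases, 2 in 17.6%, 3 in 7.80% and 4 in 3.51%, with at most 18. The blocks followed the annotated exons: in 18485 peaks of genes with the same identifier version, all 29538 blocks lay in exons of GENCODE M21, and 99.8% of 22106 inner block ends fell on an exon edge. In 742 peaks of genes with another version, 1148 of 1206 blocks (95.2%) did, and 9 peaks were in genes absent from it. A whole inner block had a median of 108 bases and the gap between blocks a median of 1253 bases. Of outer blocks 6.73% had 10 bases or fewer, so that some multi-block peaks hardly reach into the next exon. The peaks with most blocks lay in Tpr, a nuclear pore protein (18 blocks, 2849 exonic bases over a span of 16560 bases, chromosome 1, 150413963 to 150430522), Col6a2 (18 blocks) and Col7a1 (16 blocks), which encode collagens, Myh9, a non-muscle myosin heavy chain (14 blocks), and Kif4, a mitotic kinesin (14 blocks). In Col6a2 the centre fell in an exon of 45 bases.

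The share of peaks with 2 or more blocks rose with transcript level from 3 CPM up. It was 10.7% at 1 to 3 CPM, 8.78% at 3 to 10, 18.3% at 10 to 30, 36.0% at 30 to 100, 46.8% at 100 to 300 and 50.4% (interval 46.8% to 53.9%) above 300 CPM. The 433 peaks of genes under 1 CPM went against that order, with 26.3% (interval 22.2% to 30.7%). It also depended on where the centre lay, from 60.8% in internal exons to 14.4% in last exons, and from 86.3% in exons under 200 bases to 11.9% in exons of 1000 bases and over. Over 17735 peaks of genes with 2 or more merged exons, the share was 33.3% (interval 32.7% to 34.05%). The same widths set at every position of the merged exons, pooled over all transcripts of each gene, would give 35.4%. For peaks under 150 bases the share was 14.5% against 18.4%. Merged exons can differ from those of any single transcript. Among classes of nuclear genes it ran from 2.33% in cadherins and 12.9% in Zfp genes to 61.5% in aminoacyl-tRNA synthetases. Neighbouring peaks of a gene were separated by a median of 567 exonic bases, and 8.42% of 9342 neighbouring pairs by 100 or fewer.

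**Figure D4:**
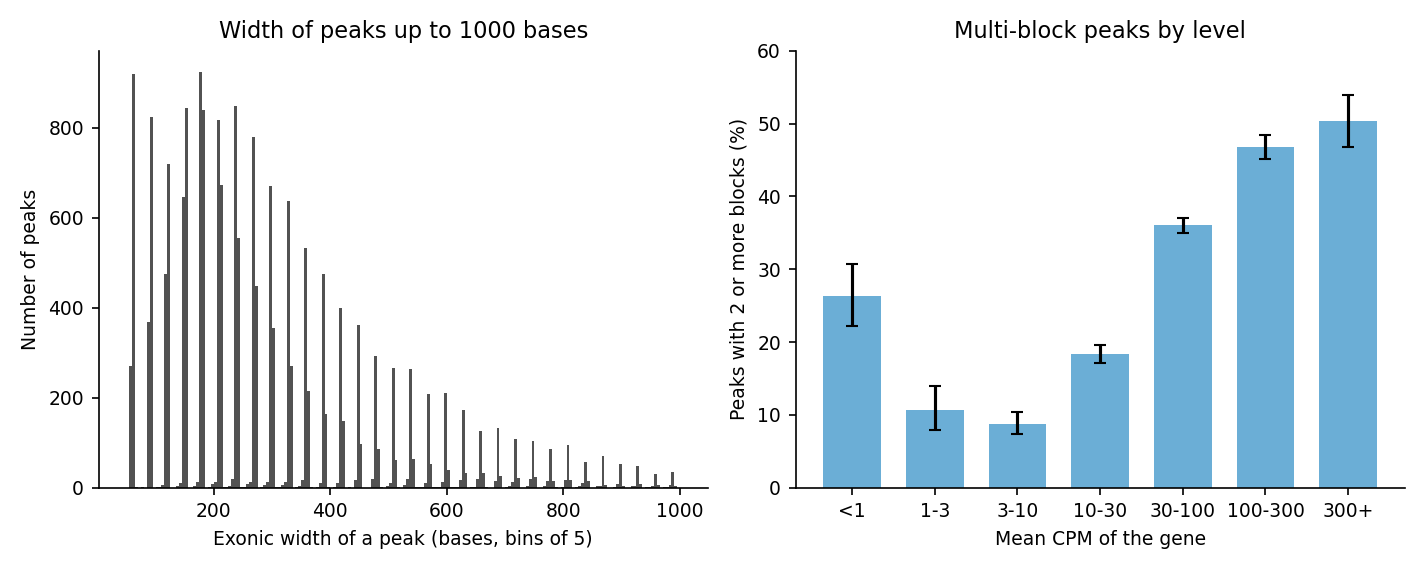
The left panel counts peaks (y axis) by exonic width in bins of 5 bases (x axis) up to 1000 bases. The right panel gives the share of peaks with 2 or more blocks (y axis, percent) by mean CPM of the gene, with exact 95% intervals. Widths stand in columns 30 bases apart, and the multi-block share is 26.3% under 1 CPM, 10.7% at 1 to 3 CPM and 50.4% above 300 CPM.

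The consensus GGACT was denser in peaks than in the unpeaked sequence of the same 8240 transcripts. It occurred 1.57 times per kilobase in peaks and 0.994 times outside, a ratio of 1.58, and the ratio was 1.92 within 50 bases of the centre. Its letters reversed, TCAGG, had a ratio of 1.03. Around the centre GGACT reached 1.99 per kilobase in the 50 bases before it and 1.83 in the 50 after, and was 1.07 and 0.996 at 250 to 300 bases on either side. Of 16174 windows that reach 50 bases to either side of a centre, 16.8% held GGACT, against 9.15% of unpeaked windows of the same length, searched on the transcript strand only. Of the 18 forms of the m6A consensus, GGACA (1.52) and AGACT (1.52) came next and TAACT (0.810) was lowest. Their letters reversed had ratios of 1.21 for GGACA and 1.26 for AGACT. All 18 forms together had a ratio of 1.28, against 1.18 for their letters reversed, so the consensus as a whole stood little above its control.

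The 5-mers with the highest ratios were made of A and G alone. AAGAA was at 5.02 per kilobase in peaks and 2.31 outside, a ratio of 2.17, and GAAGA had a ratio of 2.12. GGACT ranked 28 among all 5-mers. The 17 highest ratios all belonged to 5-mers of A and G. GC content was 49.0% both in peaks and outside, but A made up 29.6% of bases in peaks and 25.4% outside.

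The density of both kinds of 5-mer changed step by step with the number of blocks. GGACT was at 1.77 per kilobase in peaks of 1 block, 1.55 with 2, 1.17 with 3 and 0.929 with 4 or more, the last below the 0.994 of unpeaked sequence. GGACA, another form of the consensus, went from 2.04 to 1.74 per kilobase, with 1.29 in unpeaked sequence. In peaks of 4 or more blocks its ratio to unpeaked sequence of whole transcripts was 1.35. Among such peaks centred in coding sequence it was 1.08 to unpeaked coding sequence. Against unpeaked internal exons under 200 bases it was 0.999 for all peaks of 4 or more blocks. These comparisons were chosen after seeing the data. From 1 to 4 or more blocks AAGAA rose from 3.62 to 5.57, 7.34 and 9.16 per kilobase, and purines from 53.5% to 61.9% of bases. Multi-block peaks are mostly in coding sequence, where unpeaked sequence held 1.12 GGACT and 2.83 AAGAA per kilobase. Among peaks centred in coding sequence alone, those of 4 or more blocks held 0.922 GGACT and 9.24 AAGAA per kilobase, and those of 1 block 1.58 and 3.805. Peaks centred in 3' UTRs held 1.97 GGACT per kilobase, a ratio of 2.36 to unpeaked 3' UTR sequence. Whether the purine-rich peaks hold m6A was not tested, since they carry neither replicates nor single-base positions.

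**Figure D5:**
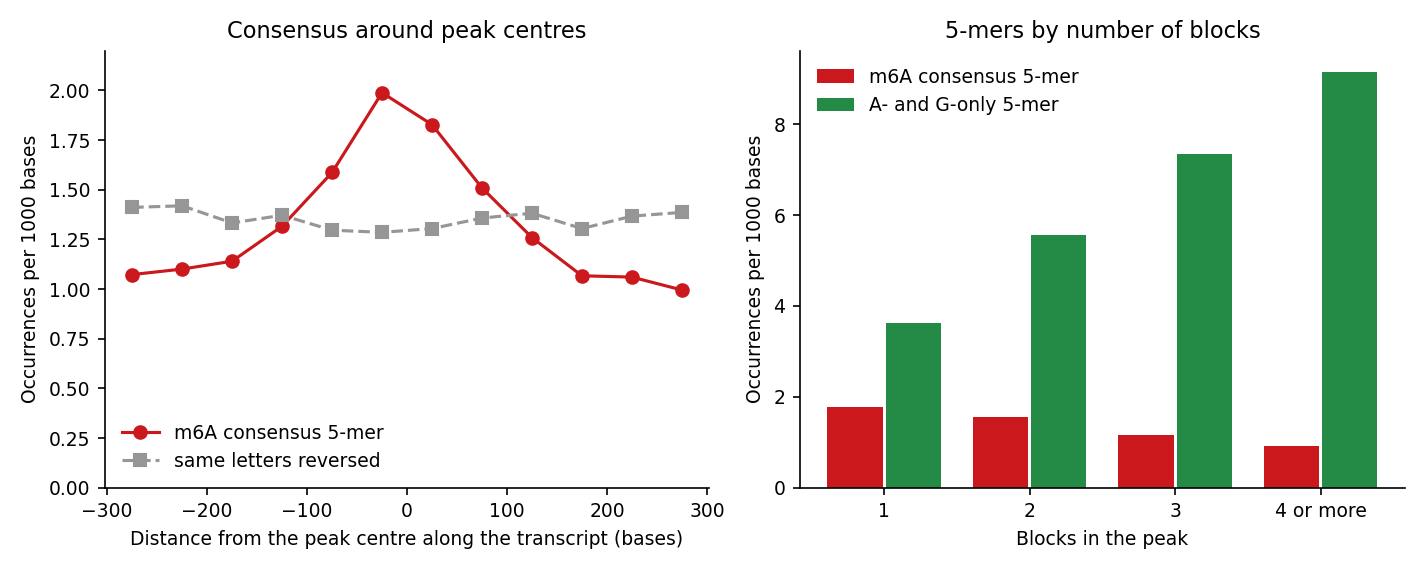
The left panel gives occurrences per 1000 bases (y axis) of the m6A consensus 5-mer and of the same letters reversed, by distance from the peak centre along the transcript (x axis, bases). The right panel gives occurrences per 1000 bases of the consensus and of the most enriched 5-mer of A and G in peaks of 1, 2, 3 and 4 or more blocks. The consensus rises to 1.99 at the centre, and from 1 to 4 or more blocks it goes from 1.77 to 0.929 while the other goes from 3.62 to 9.16.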

How the data were processed

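The authors deposited a table of unnormalized whole-number counts (genes by input library) and 1 list of m6A peaks per group, whose rows give blocks and a score. In the WT list the score made by the authors' peak calling and deposited runs from 0 to 0.00027, and its values were read as a p-value. The submitters' processing notes list HISAT2, HOMER and ChIPseeker, without saying what each did, and mm10. Which tools called peaks and counted reads, with what strand setting, and how libraries were pooled is not stated in these sources. Column totals gave CPM, and exonic lengths of GENCODE M21 (GRCm38) gave RPKM. 55141 of 55401 genes matched it by identifier. Python 3.11.15, scipy 1.17.1 and, for TMM factors, edgeR 4.0.16 in R 4.3.3 were used, and position and equal-level functions were tested on simulated data. Every result is a description without a test. The 36 gene classes were symbol patterns, and the genes named were, per class, the marked and the unmarked expressed member with the highest CPM and the member with most peaks. Over all genes they were, apart from 1 gene that is not reported here, the 10 with most peaks, the 10 unmarked protein-coding genes with the highest CPM, the 5 widest peaks and the 5 with most blocks, and all m6A machinery genes. Members and lists were chosen with earlier results of these data known. 0 columns of the count table belonged to no sample, and those of Ythdf2-KO inputs were not used.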

Additional observations from a re-analysis of the deposited data

How the results depend on the processing

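The marked share of 72.2% was 77.7% with a minimum of 5 mean CPM, 61.3% over genes with at least 1 read in every WT input library and 70.9% without peaks also listed under a second gene. The share with 3 or more peaks (20.5%) was 22.9% and 17.3% under the first 2 of these settings, 18.9% with peaks 100 or fewer exonic bases apart counted as 1, and 9.80% where many meant 4 or more. Leaving out each input library in turn gave 72.0% to 72.4% and 20.5% to 20.6%. The median width was 270 bases in genes of at least 10 mean CPM. The multi-block share (32.0%) was 27.0% in genes with a single peak and 34.7% in genes of at least 10 mean CPM. Centres in exons of 400 bases or more stood at 1.15 times an even spread, and at 1.11 for 200 bases, 1.08 for 1000 bases and 1.10 on the transcript with the most exonic bases. The GGACT ratio of 1.58 was 1.92 within 50 bases of the centre. In peaks of 4 or more blocks the ratios of 0.935 for GGACT and 3.96 for AAGAA were 0.826 and 3.27 within coding sequence and 0.786 and 2.86 against unpeaked internal exons under 200 bases, comparisons chosen after seeing the data, as was longest exon. No class outside its interval changed sign under 13 alternatives, of which bins of longest exon covered 34 of 36 classes. Whether depth sets the low marked share under 10 CPM was not tested. No paired analysis was possible because no result comes from a test between groups.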

Other observations

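Peaks were also listed for 366 genes under 1 CPM, with 433 peaks in all. Of these genes 67 had 0 reads in all 3 input libraries, which allows a level of up to 0.0590 to 0.0660 CPM in each. Of the leukocyte markers, Csf1r, at a mean of 0.105 CPM, was listed with 1 peak.

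Some long and well covered transcripts had no peak, chosen here after their values were seen. Lpp, a focal adhesion protein, had none over a reference transcript of 15460 bases at a mean of 75.6 CPM, and Ago3, an Argonaute protein, had none over 15600 bases at 28.7 CPM. With 8000 or more exonic bases, 89.2% of 995 genes at 30 to 100 CPM, the bin of Lpp, had a peak. At 10 to 30 CPM, the bin of Ago3, 80.0% of 456 such genes did.

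The mitochondrial transcripts, which are made outside the nucleus, were listed with peaks in 8 of 13 mRNAs (61.5%, interval 31.6% to 86.1%), both rRNAs and 1 of 17 tRNAs (5.88%). The shares of protein-coding genes at the same CPM were 76.1%, 72.3% and 52.1%, and 58.6% for the mRNAs in bins of RPKM. mt-Nd5 had 2 peaks, of 360 and 1226 bases, which together cover most of its 1824 bases. mt-Co2 had 1 of 298 bases at the start of the transcript.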
